A study of Mesocricetus auratus with 6 samples.

Results

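The MYC, MAX and MXD network is described here in BHK21, a fibroblast-like cell line from the kidney of baby hamsters, through 9 genes: Myc, Mycn, Max, Mxd1, Mxd3, Mxd4, Mxi1, Mnt and Mlx. These genes were picked by name, and all 9 were found among the 16078 gene identifiers of each library by matching NCBI Gene IDs to golden hamster symbols. The study held 6 RNA sequencing libraries, 3 from cells transfected with STYK1/NOK (STYK1 1 to 3, titled N1 to N3) and 3 from cells given the empty vector pCMV-Myc (vector 1 to 3, titled P1 to P3). STYK1, or NOK, resembles a receptor tyrosine kinase and spans the membrane a single time. RNA was taken 48 after transfection in both groups, with no unit given in the labels, and kidney and an age of one day are given for every sample. The plasmid pCMV-Myc supplies a short epitope tag taken from the human MYC protein. The treatment labels do not name the plasmid that carried STYK1/NOK, so the tag may not be confined to the control group. Whether any reads of the tag were counted for hamster Myc was not tested. Separate cultures are not stated for the replicates, so p-values reflect the spread among libraries alone, and that spread may be technical.

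MYC is a transcription factor of the basic helix-loop-helix leucine zipper family that drives genes of cell growth, ribosome production and division. It binds the E-box of DNA only as a dimer with MAX, which also pairs with the MXD proteins, MXI1 and MNT. Those partners bring the SIN3 corepressor and histone deacetylases to the same sites, so they are described as antagonists that compete with MYC for MAX. MLX is a MAX-like protein that pairs with MondoA and ChREBP, which sense glucose, and with some of the MXD proteins.

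Values were deposited as FPKM, fragment counts scaled by transcript length and library size, which allows levels of different genes to be set side by side. Read totals are unknown, and the depth relative to STYK1 1, estimated from the commonest ratio of low values between libraries, was 0.979 to 1.03. Vector 1 stood apart: its Pearson correlation with the other libraries on log2(FPKM + 1) was 0.963 to 0.976, against 0.988 to 0.993 among the rest. The targeted gene Styk1 ranged from 1.5 to 1.89 FPKM in vector and from 2.04 to 2.46 FPKM in STYK1 libraries. The groups did not overlap, a placing in this direction shared by 13.6% of all tested genes. Its mean was 1.33 times as high with STYK1, and it was not called (adjusted p = 0.470, limma-trend with Benjamini-Hochberg adjustment). Whether reads of the transfected construct were counted for hamster Styk1 was not tested. Of the fibroblast markers, Vim lay at 3650 to 4141 FPKM, Fn1 at 191 to 229 FPKM and Pdgfrb at 35.2 to 39.2 FPKM, while Col1a1 did not exceed 1.02 FPKM and Thy1 did not exceed 0.18 FPKM. The 5 epithelial markers with a value did not exceed 0.23 FPKM. The macrophage list held high Cd68 (279 to 351 FPKM) and Cd14 (170 to 234 FPKM) with Csf1r at 2.91 to 3.70 FPKM and Ptprc, Adgre1 and Itgam at 0.16 FPKM or lower. Its summed level, mostly Cd68 and Cd14, was 521 to 534 FPKM in vector and 452 to 513 FPKM in STYK1 libraries, without overlap. Of all tested genes, 9.44% were lower in STYK1 libraries without overlap. The FPKM sums of whole libraries were likewise lower in STYK1 libraries without overlap. For each tested gene of the list (Cd68, Csf1r and Cd14) the groups overlapped. With libraries scaled to equal FPKM sums, 2 of the 3 were higher and 1 lower with STYK1. The part of this list in the results was not tested. The fibroblast list summed to 4181 to 4411 FPKM in vector and 3919 to 4196 FPKM in STYK1 libraries. Of the 3 endothelial markers with a value, Cdh5 lay at 4.45 to 9.11 FPKM and the others did not exceed 0.54 FPKM.

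Myc was the most abundant network gene in all 6 libraries, at a mean of 123 ± 27.3 FPKM (SD, n = 6), a level that ranked it between 526 and 917 of the 16078 genes of a library. Its mean was 2.01 times that of Mxd4, the next gene in the order. Mxd4 at 61.1 ± 3.89 FPKM and Max at 60.5 ± 5.09 FPKM did not differ beyond their spread, with Mxd4 the higher in 4 of 6 libraries. Below them came Mxi1 at 36.5 ± 1.51 FPKM, Mlx at 23.5 ± 2.34 FPKM, Mnt at 9.31 ± 0.771 FPKM, Mxd3 at 4.03 ± 0.955 FPKM and Mxd1 at 2.42 ± 0.408 FPKM (SD, n = 6 each). Each neighbouring pair in that order other than Mxd4 and Max was set apart, with the lowest library of one gene above the highest library of the next. Mycn (Gene ID 101833347), the MYC relative best known from embryonic and neural tissue, was listed at 0.06 FPKM in vector 2 and STYK1 2 and at 0 in the other 4 libraries. The MYC relative Mycl was likewise listed at 0 in 5 libraries and at 0.05 FPKM in STYK1 2, so nearly all MYC family transcript in these files was Myc.

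**Figure D1:**
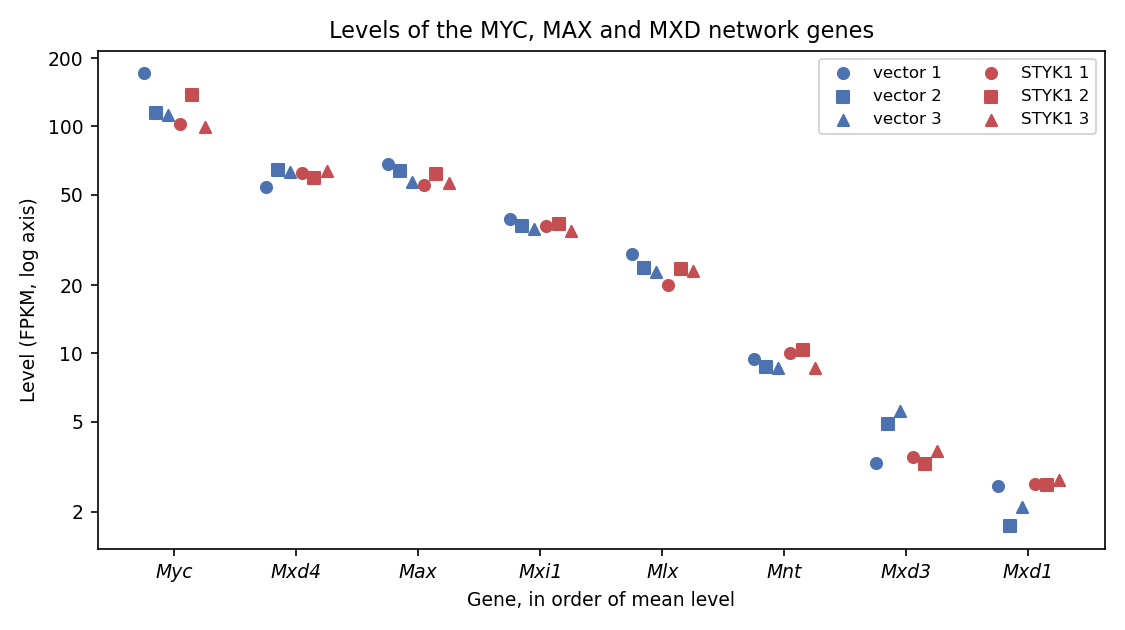
Levels of 8 network genes in FPKM on a log axis, 1 point per library, with blue for vector and red for STYK1 libraries and circle, square and triangle for replicates 1, 2 and 3. Myc lies above all others in every library, Mxd4 and Max share a level near 61 FPKM, and Mxd1 and Mxd3 lie lowest; Mycn, at 0 to 0.06 FPKM, is not drawn.

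Across all tested genes, the fit called 0 of 11464 at an adjusted p under 0.05 (0%, limma-trend on log2(FPKM + 1)), and 1128 (9.84%) at an unadjusted p under 0.05, 568 higher (4.95%) and 560 lower (4.88%) with STYK1. The 2 directions stood at 1269 to 216 under equal FPKM sums and 402 to 762 after median centring. FPKM values of a library summed to 554681 to 619840 in vector and 528160 to 542638 in STYK1 libraries, without overlap. Leaving out 1 library called 2 genes without vector 3, STYK1 1 or STYK1 3 and 0 otherwise, and the count at an unadjusted p under 0.05 was then 354 without STYK1 1, 575 without STYK1 2, 710 without STYK1 3 and 1712 without vector 3. Of the 9 network genes, 8 had a mean of at least 1 FPKM in a group and were tested, and Mycn was not. None of the 8 passed and 0 had an unadjusted p under 0.05. Without vector 1, 2 of the 8 had one, as did 1085 of the 11455 genes tested there. In the main fit 3 of the 8 had a value above 0 and 5 a value below 0 (52.7% and 47.3% of all tested genes). Their median log2 difference was -0.07 against 0.01 for all tested genes (0.04 against 0.12 at equal FPKM sums). The 3 libraries of one group lay wholly above those of the other for 1 of the 8 (Mxd1), against 23.1% of all tested genes (13.6% higher and 9.44% lower in STYK1). In these bulk samples, fewer cells with a transcript and less transcript per cell cannot be told apart.

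Myc (Gene ID 101826382) measured 171, 115 and 112 FPKM in vector 1, 2 and 3 and 103, 138 and 99.1 FPKM in STYK1 1, 2 and 3. Vector 1 was the highest and STYK1 2 the next, the other 4 lay close together, and the groups overlapped. Group means were 133 ± 33.4 FPKM for vector against 113 ± 21.4 FPKM for STYK1 (SD, n = 3 each). The difference on log2(FPKM + 1), STYK1 minus vector, was -0.22 ± 0.19 (SE), with a 95% interval of -0.64 to 0.21, and did not pass (limma-trend, adjusted p = 0.582; two-sided exact permutation p = 0.5, where 0.1 is the smallest that 3 against 3 allows). Without vector 1 the difference was -0.02 (adjusted p = 0.968). A difference of this size or larger was found for 24.5% of the 599 tested genes whose level lay within 0.5 log2 units of that of Myc.

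Max (Gene ID 101828909), the partner that MYC needs to bind DNA, measured 68.6, 63.4 and 57.1 FPKM in vector 1, 2 and 3 and 55.4, 62.1 and 56.5 FPKM in STYK1 1, 2 and 3. Its libraries spanned a 1.24-fold range, against 1.73-fold for Myc, and the groups overlapped. On the log2 scale the groups differed by -0.12 ± 0.10 (SE; 95% interval -0.34 to 0.10; limma-trend, adjusted p = 0.569; exact permutation p = 0.2), and it was -0.05 without vector 1.

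Of the antagonists, Mxd4 (Gene ID 101824068), an MXD gene known from quiescent and differentiating cells, measured 54.1, 64.5 and 62.9 FPKM in vector 1, 2 and 3 and 62.6, 59.1 and 63.4 FPKM in STYK1 1, 2 and 3. Vector 1 was the lowest library for Mxd4 and STYK1 2 the next lowest, the reverse of their places for Myc. Mxi1 (Gene ID 101839162), the MXD family member named for its interaction with MAX, measured 38.9, 36.3 and 35.5 FPKM in vector and 36.5, 37.1 and 34.5 FPKM in STYK1 libraries 1, 2 and 3. With a coefficient of variation of 4.13% over the 6 libraries, Mxi1 varied least of the 8 tested network genes. The log2 differences were 0.03 ± 0.09 (SE) for Mxd4 (95% interval -0.18 to 0.25, adjusted p = 0.884) and -0.03 ± 0.08 (SE) for Mxi1 (95% interval -0.23 to 0.16, adjusted p = 0.864; limma-trend). Both have the other sign without vector 1, at -0.05 and 0.01, and Mxi1 also at equal FPKM sums (0.08), where the median of all genes was 0.12.

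Mnt (Gene ID 101843027), a MAX-binding repressor expressed in dividing and resting cells alike, measured 9.45, 8.75 and 8.59 FPKM in vector 1, 2 and 3 and 10.02, 10.4 and 8.64 FPKM in STYK1 1, 2 and 3. The groups overlapped, with STYK1 3 among the vector values. The log2 difference was 0.10 ± 0.11 (SE, 95% interval -0.16 to 0.36, limma-trend adjusted p = 0.663) and was 0.14 without vector 1.

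Mxd1 and Mxd3 were the least abundant antagonists and had the largest log2 differences with a positive and a negative sign among the tested network genes. Mxd1 (Gene ID 101825052), first described as rising when cells differentiate, measured 2.61, 1.73 and 2.10 FPKM in vector 1, 2 and 3 and 2.65, 2.64 and 2.76 FPKM in STYK1 1, 2 and 3. All 3 STYK1 libraries were above all 3 vector libraries, though the 2.61 FPKM of vector 1 was close to the 2.64 FPKM of STYK1 2. The means were 2.15 ± 0.442 FPKM and 2.68 ± 0.0666 FPKM (SD, n = 3 each), with a log2 difference of 0.24 ± 0.15 (SE; 95% interval -0.11 to 0.58). The gene did not pass (limma-trend, adjusted p = 0.493; exact permutation p = 0.1, the smallest possible). Mxd3 (Gene ID 101826900), known as the MXD gene expressed in S phase, measured 3.30, 4.88 and 5.55 FPKM in vector 1, 2 and 3 and 3.50, 3.25 and 3.71 FPKM in STYK1 1, 2 and 3. Vector 2 and vector 3 were above all STYK1 libraries and vector 1 lay among them, so the groups overlapped. The means were 4.58 ± 1.16 FPKM and 3.49 ± 0.230 FPKM, with a log2 difference of -0.29 ± 0.17 (SE; 95% interval -0.69 to 0.11, limma-trend adjusted p = 0.484). Without vector 1 the differences grew to 0.34 for Mxd1 (unadjusted p = 0.0400, adjusted p = 0.521) and to -0.47 for Mxd3 (unadjusted p = 0.00554, adjusted p = 0.439; limma-trend), and neither passed.

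The ratio of Mxd3 to Mxd1 came to 1.26, 2.82 and 2.64 for vector 1, 2 and 3, against 1.32, 1.23 and 1.34 for STYK1 1, 2 and 3. By this ratio, vector 1 lay inside the range of the STYK1 libraries and apart from the other vector libraries. Mga encodes a large MAX partner that also carries a T-box DNA-binding domain. Of the 3 matched genes of the wider network (Mycl, Mga and Mlxipl), only Mga was past the filter, at 10.8, 14.4 and 14.1 FPKM in vector 1, 2 and 3 and 17.0, 17.7 and 14.8 FPKM in STYK1 1, 2 and 3. All STYK1 libraries were above all vector libraries, as for 13.6% of all tested genes. The log2 difference was 0.32 ± 0.13 (SE, 95% interval 0.01 to 0.63). Mga had an unadjusted p of 0.0443, under 0.05 like 9.84% of all tested genes, and did not pass (limma-trend, adjusted p = 0.469). Vector 1 was the lowest of the 6, and without it the difference was 0.20.

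**Figure D2:**
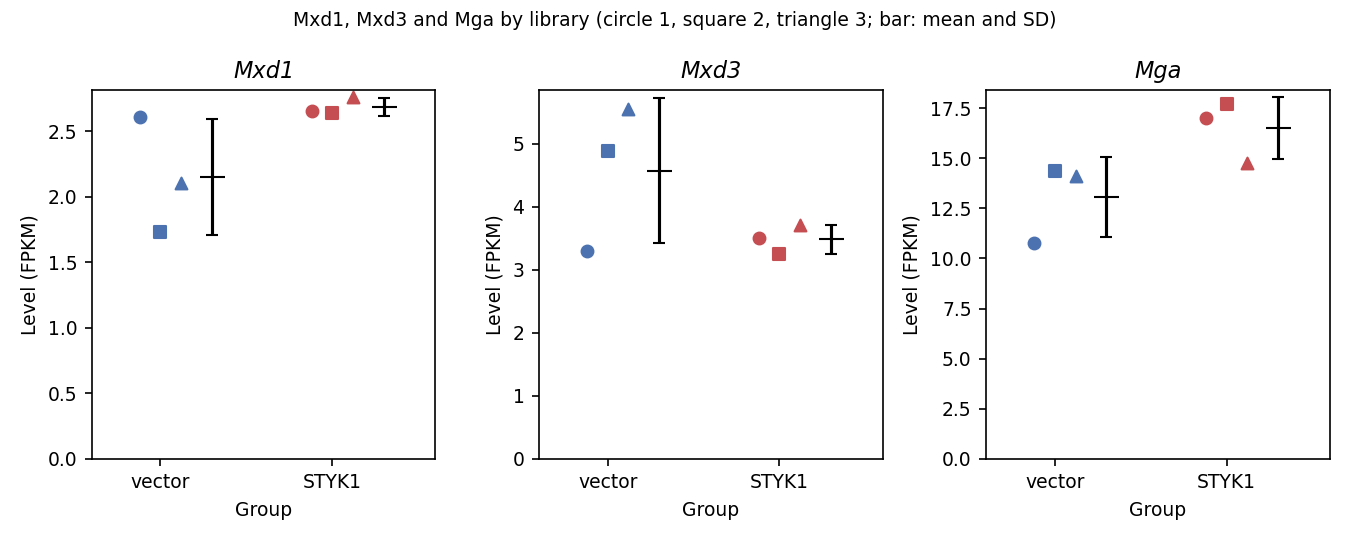
Levels of Mxd1, Mxd3 and Mga in FPKM by library and group, each axis starting at 0, with the bars showing the mean and SD of 3 libraries. Vector 1 (blue circle) lies next to the STYK1 libraries for Mxd1 and among them for Mxd3, and is the lowest of all for Mga at 10.8 FPKM.

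Mlx (Gene ID 101831745) measured 27.4, 23.8 and 22.9 FPKM in vector 1, 2 and 3 and 20.1, 23.5 and 23.1 FPKM in STYK1 1, 2 and 3. Vector 1 was the highest and STYK1 1 the lowest, with the other 4 between 22.9 and 23.8 FPKM. The log2 difference was -0.15 ± 0.11 (SE; 95% interval -0.39 to 0.10, limma-trend adjusted p = 0.534) and was -0.07 without vector 1. The ChREBP gene Mlxipl, which encodes a partner of MLX, was listed at 0.05 FPKM in vector 1 and at 0 in the other libraries. Arrdc4, a gene known to be driven by MLX with MondoA, lay at 0.08 to 0.24 FPKM. The ratio of Max to Mlx stayed between 2.45 and 2.76 over the 6 libraries.

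**Figure D3:**
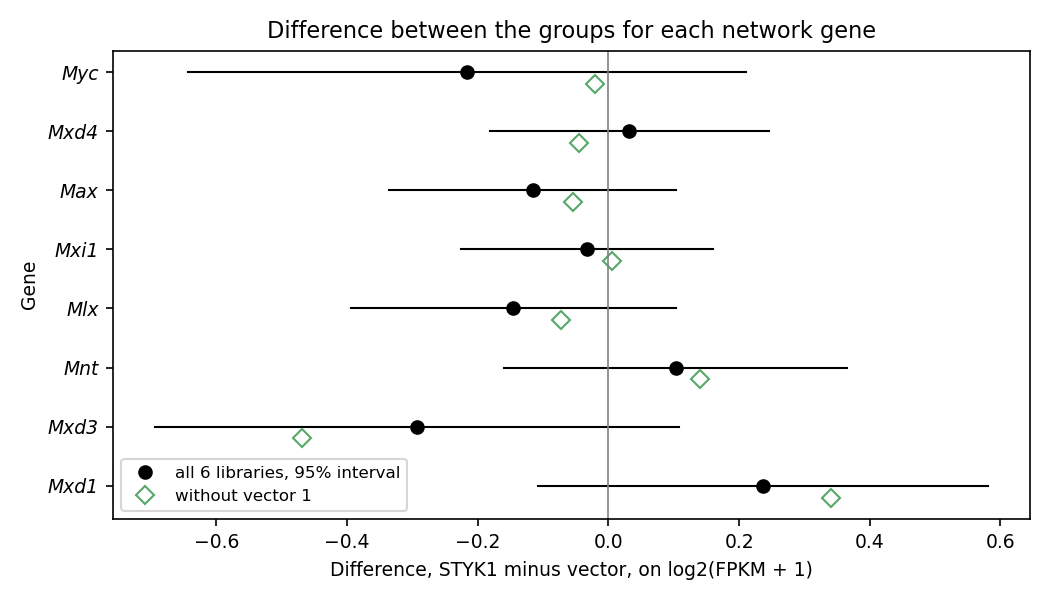
Difference between the group means on log2(FPKM + 1), STYK1 minus vector, for the 8 tested network genes; black points and lines are the value and 95% interval over 6 libraries, and green diamonds the value without vector 1. Every interval covers 0, the value for Myc moves from -0.22 to -0.02 without vector 1, and those for Mxd1 and Mxd3 move away from 0.

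The level of Myc was then set against its partners within each library, as a description with no test. Myc over Max came to 2.50, 1.81 and 1.97 for vector 1, 2 and 3, against 1.86, 2.22 and 1.75 for STYK1 1, 2 and 3. Vector 1 and STYK1 2 had the highest ratios, and the group means of 2.09 ± 0.360 and 1.94 ± 0.245 (SD, n = 3 each) lay within the spread. The 5 antagonists Mxd1, Mxd3, Mxd4, Mxi1 and Mnt together amounted to 113 ± 4.11 FPKM for vector against 114 ± 1.48 FPKM for STYK1 (SD, n = 3 each). Mxd4 alone made up 49.9% to 56.1% of that sum and Mxd4 with Mxi1 85.5% to 86.8%, so the genes with the largest differences, Mxd1 and Mxd3, together held only 5.24% to 6.68%. Myc over the summed antagonists came to 1.58, 0.989 and 0.981 for vector 1, 2 and 3, against 0.892, 1.23 and 0.876 for STYK1 1, 2 and 3. Myc thus exceeded its summed antagonists in vector 1 and STYK1 2 and was lower than their sum in the other 4 libraries, a division that cuts across the groups. The difference of this log2 ratio, STYK1 minus vector, was -0.22, and it was 0.0016 without vector 1.

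Max was lower than its summed partners in every library. The level of Myc with the 5 antagonists was 3.65 to 4.08 times that of Max, with means of 3.90 ± 0.226 for vector against 3.91 ± 0.142 for STYK1 (SD, n = 3 each). The antagonists alone reached 1.58, 1.83 and 2.01 times Max for vector 1, 2 and 3, against 2.08, 1.81 and 2.001 times for STYK1 1, 2 and 3. These are transcript levels, and protein was not measured here. Of the summed level of the 9 genes, Myc took 45.6% in vector 1 and 41.0% in STYK1 2, against 34.0% to 36.6% in the other libraries, while the share of Max was 18.2% to 19.9% throughout.

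**Figure D4:**
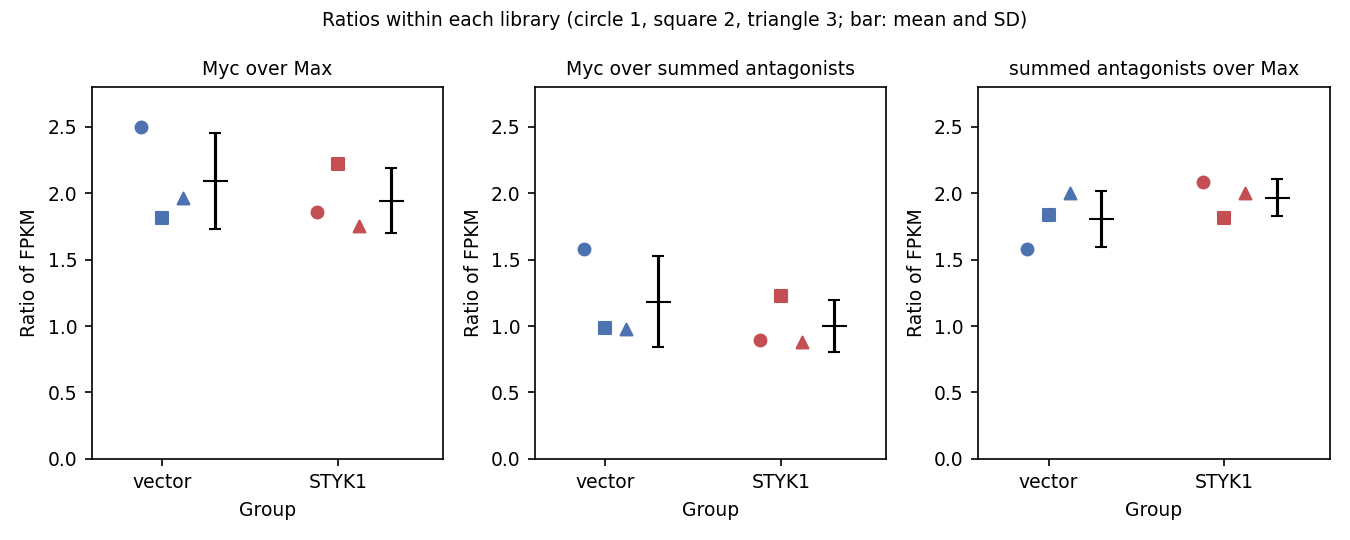
Ratios of FPKM within each library for Myc over Max, Myc over the 5 summed antagonists and the summed antagonists over Max, by group, with the mean and SD of 3 libraries as bars. Vector 1 (blue circle) and STYK1 2 (red square) have the highest ratios of Myc, 2.50 and 2.22 over Max, and the groups overlap in all 3 panels.

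The genes whose levels followed Myc most closely over the 6 libraries were ranked by Pearson r on log2(FPKM + 1) among 10019 tested genes with a symbol. First came Borcs6, of a complex that positions lysosomes (r = 0.998), and Socs3, a feedback inhibitor of cytokine signalling (r = 0.996). Borcs6 measured 17.4, 9.67 and 9.59 FPKM in vector 1, 2 and 3 and 7.99, 12.8 and 7.46 FPKM in STYK1 1, 2 and 3. Socs3 measured 30.3, 20.2 and 19.5 FPKM in vector and 17.0, 23.6 and 17.0 FPKM in STYK1 libraries 1, 2 and 3, so for both genes vector 1 and STYK1 2 were the highest, as for Myc. The importin gene Ipo13 (r = 0.996), the mRNA 3′ end processing gene Fip1l1 (r = 0.994) and the complement gene C1r (r = 0.994) came next. When vector 1 and STYK1 2, the libraries farthest from the median of Myc, were left out, r over the other 4 was 0.995 for Borcs6, 0.979 for Socs3, 0.935 for Ipo13, 0.943 for Fip1l1 and 0.928 for C1r. These are the highest of many coefficients over few libraries, and a single library can carry them. Within the network, r with Myc was 0.90 for Mxi1, 0.90 for Max and 0.82 for Mlx. It was 0.37 for Mnt, 0.13 for Mxd1, -0.39 for Mxd3 and -0.93 for Mxd4. Among the 10019 genes, Mxi1 took place 811, Max 820 and Mlx 1612, so many other genes followed Myc as closely. Mnt took place 4183, Mxd1 4941, Mxd3 6333 and Mxd4 9607. Over the other 4 libraries, r was 0.47 for Mxi1, 0.73 for Max and 0.47 for Mlx. It was then -0.35 for Mnt, -0.97 for Mxd1, 0.88 for Mxd3 and 0.46 for Mxd4. The sign thus turned for all of the antagonists but Mxi1.

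Gene lists around the network were read from the same fit, and 0 genes of any list passed in either direction (limma-trend, adjusted p under 0.05). Of the 13 genes of the SIN3 corepressor, which MXD proteins and MNT bind, 10 had a value above 0 and 3 below. Their median log2 difference was 0.04 (0.15 at equal FPKM sums and 0.01 after median centring). The median of all tested genes was 0.01 (0.12 at equal FPKM sums and -0.01 after median centring). In 3 of them, Sin3a, Hdac2 and Arid4b, all STYK1 libraries were above all vector libraries, 13.6% being the share of tested genes so placed. Arid4b stood at 15.3 ± 0.986 FPKM for vector against 18.7 ± 2.09 FPKM for STYK1 (log2 difference 0.27 ± 0.11, SE, adjusted p = 0.469, limma-trend). The other corepressor genes of smallest p were Sin3b at 64.9 ± 10.4 against 53.7 ± 3.04 FPKM, Rbbp4 at 146 ± 28.9 against 169.7 ± 8.01 FPKM and Arid4a at 9.64 ± 0.902 against 10.9 ± 0.715 FPKM, vector against STYK1. Vector 1 was the lowest library for Rbbp4 and the highest for Sin3b. Without it the log2 difference went from 0.23 to 0.06 for Rbbp4 and from -0.26 to -0.15 for Sin3b. That of Arid4b went from 0.27 to 0.31 and that of Arid4a from 0.16 to 0.21. Of 11 tested cofactors of MYC, 3 had a value above 0 and 8 below, with a median of -0.10. At equal FPKM sums 7 were above 0 and 4 below, with a median of 0.0054 against 0.12 for all tested genes. The ATPase gene Ruvbl2 measured 65.6, 48.5 and 51.3 FPKM in vector 1, 2 and 3 and 44.1, 46.2 and 43.1 FPKM in STYK1 1, 2 and 3. All STYK1 values of Ruvbl2 were lower, as for 9.44% of all tested genes. Of the 11 cofactors, 2 (Ruvbl2 and Kat5) were lower and 0 higher with STYK1 without overlap, against 23.1% of all tested genes in either direction. The log2 difference of Ruvbl2 was -0.29 ± 0.12 (SE, adjusted p = 0.469, limma-trend), and -0.16 without vector 1. The acetyltransferase gene Kat5 measured 22.8 ± 2.77 against 19.97 ± 0.380 FPKM, Dmap1 18.1 ± 3.27 against 15.2 ± 1.37 FPKM and Ep400 12.6 ± 1.597 against 14.3 ± 1.00 FPKM, vector against STYK1. Without vector 1 these differences went from -0.17 to -0.08, from -0.22 to -0.09 and from 0.18 to 0.08 on the log2 scale.

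Of 13 genes that act on the stability of MYC protein, 8 had a value above 0 and 5 below, with a median of 0.05. That balance depended on the scaling: 6 were above and 7 below after quantile normalization (median -0.01), and 11 above and 2 below at equal FPKM sums (median 0.15). The median of all tested genes was -0.0019 after quantile normalization and 0.12 at equal FPKM sums. The ubiquitin ligase gene Huwe1 stood at 24.4 ± 1.75 FPKM for vector against 28.9 ± 2.21 FPKM for STYK1, and Gsk3b, the kinase that marks MYC for degradation, measured 28.9 ± 3.45 against 33.9 ± 1.43 FPKM. The deubiquitinase gene Usp28 measured 15.5 ± 2.14 against 18.6 ± 1.13 FPKM and the ubiquitin ligase gene Stub1 113 ± 17.5 against 95.2 ± 4.01 FPKM, in the same order. Of the 13 genes, these 4, 3 higher and 1 lower with STYK1, were the ones whose groups did not overlap, against 23.1% of all tested genes. None passed (adjusted p = 0.469 each, limma-trend). They are the genes of smallest p in the list. Without vector 1 the log2 difference went from 0.26 to 0.15 for Usp28, from 0.23 to 0.13 for Gsk3b and from -0.24 to -0.11 for Stub1. That of Huwe1 went from 0.23 to 0.18.

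Of 33 tested genes known to be raised by MYC, 14 had a value above 0 and 19 below, with a median of -0.04. At equal FPKM sums 22 were above 0 and 11 below (median 0.07, against 0.12 for all tested genes). After quantile normalization 18 were above and 15 below (median 0.02, against -0.0019 for all tested genes). The spermidine synthase gene Srm measured 88.1, 64.2 and 65.3 FPKM in vector 1, 2 and 3 and 54.3, 57.1 and 57.2 FPKM in STYK1 1, 2 and 3. All STYK1 values of Srm were lower, as for 9.44% of all tested genes. Of the 33 genes, 3 were lower and 2 higher with STYK1 without overlap, against 23.1% of all tested genes in either direction. The log2 difference of Srm was -0.35 ± 0.13 (SE, unadjusted p = 0.0239, adjusted p = 0.469, limma-trend), and it was -0.20 without vector 1. Bop1 and Pes1, which act in ribosome assembly, measured 43.6 ± 7.47 against 34.8 ± 1.97 FPKM and 73.6 ± 10.4 against 62.5 ± 2.59 FPKM, and the cap-binding gene Eif4e measured 55.3 ± 2.64 against 63.7 ± 6.39 FPKM, vector against STYK1. Without vector 1 the log2 difference of Bop1 went from -0.31 to -0.17, that of Pes1 from -0.23 to -0.12 and that of Eif4e from 0.20 to 0.17. The mean level of this list relative to the vector mean was 0.04, -0.02 and -0.02 log2 units for vector 1, 2 and 3, against -0.04, -0.03 and -0.03 for STYK1 1, 2 and 3. Of 7 tested genes known to be lowered by MYC, 3 had a value above 0 and 4 below, with a median of -0.06. At equal FPKM sums 4 were above and 3 below (median 0.05, against 0.12 for all tested genes). The cell cycle inhibitor gene Cdkn1a measured 492, 345 and 329 FPKM in vector 1, 2 and 3 and 298, 361 and 313 FPKM in STYK1 1, 2 and 3, so vector 1 and STYK1 2 were the highest here too (adjusted p = 0.497, limma-trend). Its log2 difference was -0.24, and -0.06 without vector 1. Gadd45a measured 32.04 ± 4.61 against 28.6 ± 5.60 FPKM, Ndrg1 13.9 ± 1.20 against 15.0 ± 2.06 FPKM and Ndrg2 42.5 ± 3.50 against 37.9 ± 2.05 FPKM, vector against STYK1. Without vector 1 the log2 difference went from -0.17 to -0.06 for Gadd45a, from 0.10 to 0.14 for Ndrg1 and from -0.16 to -0.12 for Ndrg2.

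**Figure D5:**
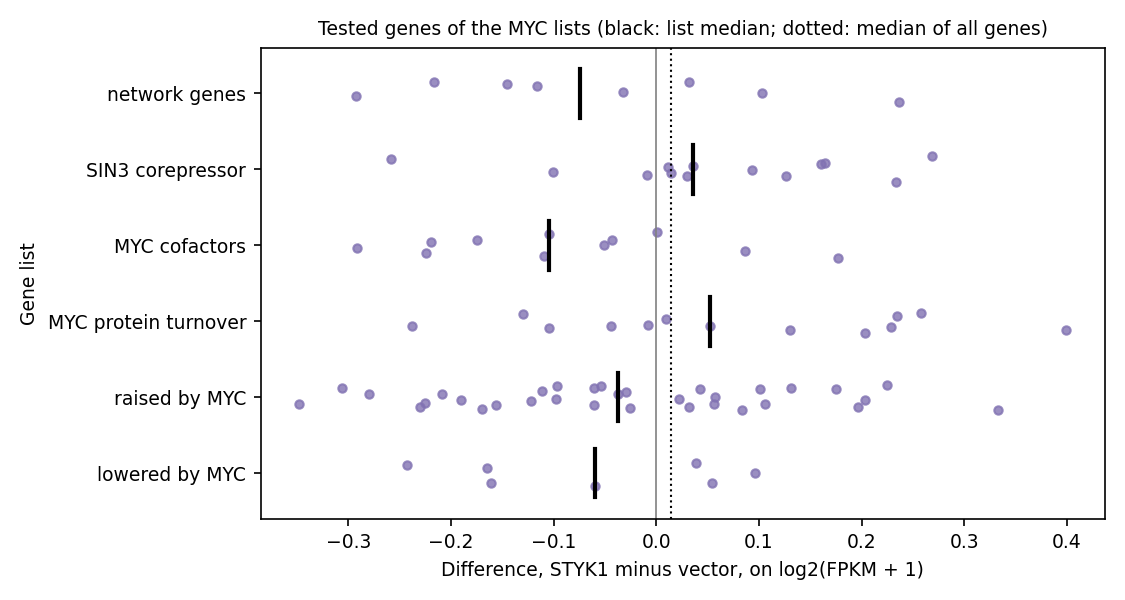
Difference between the group means on log2(FPKM + 1), STYK1 minus vector, 1 point per tested gene, for the network genes and 5 lists around them; black bars are list medians and the dotted line is the median of all tested genes, 0.01. List medians lie between -0.10 and 0.05, inside the spread of each list. At equal FPKM sums those of the network genes, the cofactors and both sets of MYC-responsive genes are above 0 but below the 0.12 of all tested genes. After quantile normalization that of the turnover genes is below 0 and that of the genes raised by MYC above 0. No gene drawn passed the test.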

How the data were processed

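The authors deposited FPKM values for each library in a file of its own, per the file headers. The submitters' processing notes list Bowtie 0.12.2 and 2 mouse builds (mm8, mm9) without saying how each was used. The sources used here do not give the FPKM tool, its annotation, its strand setting or its handling of multi-mapping reads, which leaves values of paralogs and overlapping genes uncertain. Libraries were made from 1 ug of total RNA with an Illumina TruSeq kit, per the labels' protocols.

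Of 16078 identifiers, 15049 matched the NCBI RefSeq table of the hamster assembly BCM_Maur_2.0, used for names only, with no coordinates taken. The 11464 genes whose mean reached 1 FPKM in either group were fitted with limma-trend (limma 3.58.1, R 4.3.3, robust) on log2(FPKM + 1), without further scaling, and adjusted by Benjamini and Hochberg over all of them. Such differences understate changes of genes with low FPKM. Exact permutation tests (scipy 1.17.1) were two-sided. The fit was tested on simulated data. Relative depth was read from the commonest ratio of values between 0.8 and 6 FPKM in pairs of libraries. Absolute depth is unknown, so no counting intervals are given.

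Members and lists were chosen with earlier results of these data known. Named were all members, Styk1, up to 4 genes of smallest p in each list, the 5 genes most like Myc, and Mycl, Mlxipl, Arrdc4, Sin3a, Hdac2 and further marker genes, which were added after their values were seen. Some listed genes had no matched identifier and were not analysed here. Alternatives covered pseudocount, filter, scaling, weights, a replicate block and leaving out each library.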

Additional observations from a re-analysis of the deposited data

How the results depend on the processing

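No network gene passed the test under any of the 16 alternatives run, in which adjusted p ranged from 0.101 (Mxd3, quality weights) to 0.992 (Mxi1). Myc, Max, Mlx and Mxd3 kept a negative and Mnt and Mxd1 a positive sign in all alternatives that gave a value. Mxd4 turned to -0.030 with quality weights, Mxi1 to 0.076 at equal FPKM sums, and leaving out 1 library gave -0.045 to 0.080 for Mxd4 and -0.060 to 0.0056 for Mxi1, the other sign coming without vector 1. For Myc, leaving out 1 library gave -0.37 to -0.02. The log2 ratio of Myc to Max lay between -0.20 and 0.03 and that of Myc to the summed antagonists between -0.38 and 0.0016, both above 0 only without vector 1. Network genes at an unadjusted p under 0.05 numbered 1 after quantile normalization (Mxd3), 2 with quality weights and 0 to 2 when 1 library was left out (Mxd1 and Mxd3, without vector 1). Among all tested genes, 1044 had such a p after quantile normalization and 1085 without vector 1. Over all genes, quality weights, which gave vector 1 a weight of 0.129, called 24 genes and put 2365 at an unadjusted p under 0.05; leaving out 1 library called 0 to 2 (2 each without vector 3, STYK1 1 or STYK1 3) and put 354 (without STYK1 1) to 1712 (without vector 3) there, with 575 without STYK1 2 and 710 without STYK1 3. The causes were not tested. Deviations from the group mean of libraries with the same replicate number correlated at -0.27, -0.16 and 0.11, and not every library correlated best with its own number. With 3 libraries a group, these coefficients cannot decide whether the libraries were paired. With the replicate block, 0 genes were called, 831 had an unadjusted p under 0.05, and Myc had an adjusted p of 0.638. With 3 libraries a group and unknown depth, values near 0 FPKM, such as those of Mycn, cannot be told from absence.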
